A study of Homo sapiens with 6 samples.

Results

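The genes of the cytosolic ribosomal proteins were followed in PC9 cells, a human lung adenocarcinoma line that carries an activating deletion in EGFR. The members were gene symbols of RPL or RPS with a number and at most a short suffix, and RPLP0 to RPLP2 and RPSA. The RPS6K kinases, pseudogenes, readthrough genes of like symbol and RPL36AL lay outside this rule. It gave 84 of the 16306 genes in the deposited gene table. They comprised 43 large subunit genes, 31 small subunit genes, the 3 genes of the P stalk and 7 paralogs (RPL3L, RPL7L1, RPL10L, RPL22L1, RPL26L1, RPL39L and RPS27L), each a related copy of another member. RNA-seq compared 3 libraries of cells with a negative control shRNA (sh-NC) with 3 libraries of cells with an shRNA against RBM10 (shRBM10), an RNA-binding regulator of splicing. The labels name neither the shRNA used in each sample nor separate cultures, so p-values measure the spread between these libraries, which may be technical. Only 1 of the 3 shRBM10 columns could be matched to a numbered sample, and these libraries are called A, B and C here.

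Ribosomal proteins line the ribosomal RNA of the small and the large subunit, and cells make them in near-equal numbers, so their mRNAs are usually regulated together and rank among the most abundant in growing cells. Most of these mRNAs begin with a 5′ terminal oligopyrimidine tract (TOP), a C followed by a run of C and T, through which mTOR signaling and the RNA-binding protein LARP1 control their translation and stability. A few members also act outside the ribosome, such as RPL5 and RPL11, which bind MDM2 and stabilise p53, and inherited loss of 1 copy of several members causes Diamond-Blackfan anaemia.

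The start sites annotated by RefSeq on GRCh38.p14 were used to show this tract. A promoter entry was found for 67 of the 84 members, and 47 of them (70.1%) had at least 1 annotated start at a C followed by 4 or more pyrimidines, against 7.37% of the 10339 tested genes with an entry and 8.57% of 70 genes of the mitochondrial ribosome. Among the 62 core members with an entry the share was 74.2%, and among 5 paralogs 1 had it (RPL22L1). The lines that follow give the 15 bases before and the 15 bases from the annotated start, with the capitals marking the first base and the pyrimidines that follow it. RPL13A (chr19:49487593-49487622, plus strand) and RPLP0 (chr12:120201097-120201126, minus strand) are 2 of the 3 most abundant members, RPL11 (chr1:23691791-23691820, plus), RPS6 (chr9:19380222-19380251, minus) and RPS24 (chr10:78033848-78033877, plus) are described below, and RPL26 (chr17:8383179-8383208, minus) and RPS27 (chr1:153990747-153990776, plus) stand beside their paralogs RPL26L1 (chr5:172958714-172958743, plus) and RPS27L (chr15:63157463-63157492, minus).
RPL13A: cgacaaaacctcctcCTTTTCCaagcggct
RPLP0: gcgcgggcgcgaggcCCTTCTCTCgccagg
RPL11: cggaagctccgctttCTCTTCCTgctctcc
RPS6: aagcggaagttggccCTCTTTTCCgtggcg
RPS24: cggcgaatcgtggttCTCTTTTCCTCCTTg
RPL26: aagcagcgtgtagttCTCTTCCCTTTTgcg
RPL26L1: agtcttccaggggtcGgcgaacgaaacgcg
RPS27: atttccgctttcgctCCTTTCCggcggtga
RPS27L: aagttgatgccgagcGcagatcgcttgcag
The core genes RPL26 and RPS27 began with pyrimidine runs, while the annotated starts of RPL26L1 and RPS27L began with G. RPL6 had no TOP at either of its 2 annotated starts, and RPL3 began with a C and 3 further pyrimidines, 1 short of the definition. An annotated start is not a measured one, and these libraries do not map it.

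Counts on genes summed to between 16606390 and 18864243 per library. RBM10 was at 77.9, 64.4 and 80.0 CPM (counts scaled to a common library size by TMM) in sh-NC replicates 1, 2 and 3 and at 29.2, 28.0 and 36.6 in shRBM10 libraries A, B and C, a log2 fold change of -1.24 (SE 0.23, edgeR adjusted p = 0.1). The groups did not overlap, although RBM10 missed the threshold in the fit of all libraries. Without sh-NC replicate 2 its log2 fold change was -1.42 (edgeR adjusted p = 0.0487). The epithelial markers KRT8, KRT18, KRT19, EPCAM, CDH1 and EGFR were all present. In any library, 3 leukocyte markers had at most 7 counts, the endothelial CDH5 at most 177 and the fibroblast COL1A1 at most 185. Retinas are mentioned in the labels' extraction protocol, but of 6 retinal markers only 2 are in the table, NRL at 64 to 115 counts and PDE6B at 0 or 1. sh-NC replicate 2 stood apart from the 5 other libraries. Its TMM factor was 0.738 against 1.03 to 1.08 elsewhere, and EGFR was at 141 CPM in it against 576 to 811 CPM. Across all tested genes, its level correlated with log2 transcript length at r = -0.650, whereas the r of the others lay between 0.309 and 0.629. With GC content, the r was 0.223 in that library, -0.689 in shRBM10 library A, -0.643 in library B and -0.219 to -0.123 in the other 3. Values without sh-NC replicate 2 are therefore given beside the fit of all libraries.

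Ribosomal protein genes took a large part of the counts in every library. Their share was 11.3%, 18.0% and 10.9% in sh-NC replicates 1, 2 and 3 and 10.5%, 12.6% and 11.2% in shRBM10 libraries A, B and C. The 95% Wilson interval of each share was at most 0.0353 percentage points wide, which covers counting error only, so the libraries differed far beyond counting error. The highest share was that of sh-NC replicate 2, and the other 5 libraries of both groups lay within the range of 10.5% to 12.6%. The sh-NC mean was 13.4% ± 3.96 and the shRBM10 mean 11.4% ± 1.06 (SD, n = 3 each), a difference of -1.99 percentage points that was not significant (two-sided exact permutation test, p = 0.6, where 3 against 3 cannot go below 0.1). Without sh-NC replicate 2 the difference was 0.291 points in the other direction. In bulk RNA, less of an mRNA per cell cannot be told apart from fewer cells that make it.

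**Figure D1:**
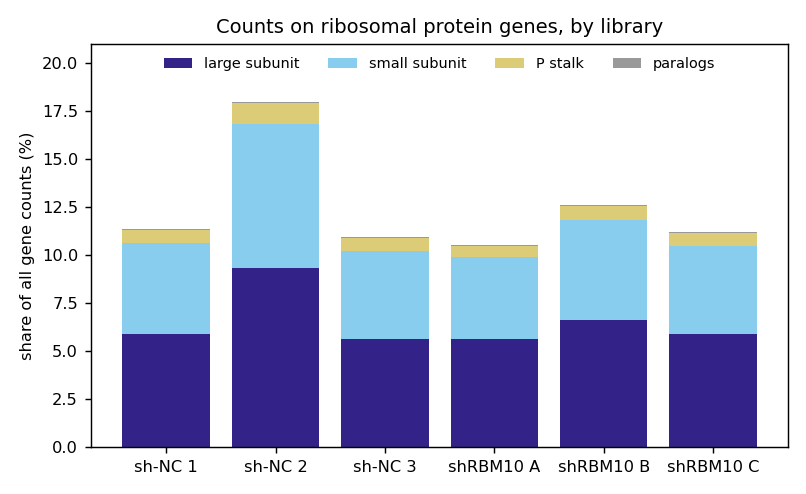
Share of all gene counts (%) on ribosomal protein genes in each library, stacked by large subunit, small subunit, P stalk and paralogs, with no error bars because each bar is 1 library. sh-NC replicate 2 reached 18.0%, and the other 5 libraries lay between 10.5% and 12.6%.

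All classes had their highest share in sh-NC replicate 2 and otherwise lay close together. Large subunit genes took 5.88%, 9.33% and 5.63% of counts in the sh-NC libraries and 5.62%, 6.62% and 5.86% in shRBM10. Small subunit genes took 4.73%, 7.48% and 4.57% in sh-NC and 4.30%, 5.19% and 4.61% in the shRBM10 libraries. The P stalk genes, which recruit elongation factors to the ribosome, took 0.700%, 1.14% and 0.707% in sh-NC and 0.554%, 0.746% and 0.689% in the shRBM10 libraries. The 7 paralogs together took 0.0282% to 0.0467% in any library. These shares overlapped between the groups in each of the 4 classes.

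The elevation in sh-NC replicate 2 extended to every member. In CPM, each of the 82 tested members was highest in this library. The median member was 2.33-fold above the mean of sh-NC replicates 1 and 3, and the log2 ratio ran from 0.52 to 1.75 over the members. Relative to each gene's sh-NC mean, the median log2 level of the members was -0.38, 0.81 and -0.43 in sh-NC replicates 1, 2 and 3 and -0.47, -0.15 and -0.32 in shRBM10 libraries A, B and C. Libraries A and C of shRBM10 were thus close to sh-NC replicates 1 and 3, and library B was less far below the sh-NC mean. Within sh-NC, the median standard deviation of a member's log2 level was 0.70, against 0.33 over all tested genes. Within shRBM10 it was 0.17, against 0.28 over all tested genes. The part of transcript length or GC content in the elevation of sh-NC replicate 2 was not tested separately.

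**Figure D2:**
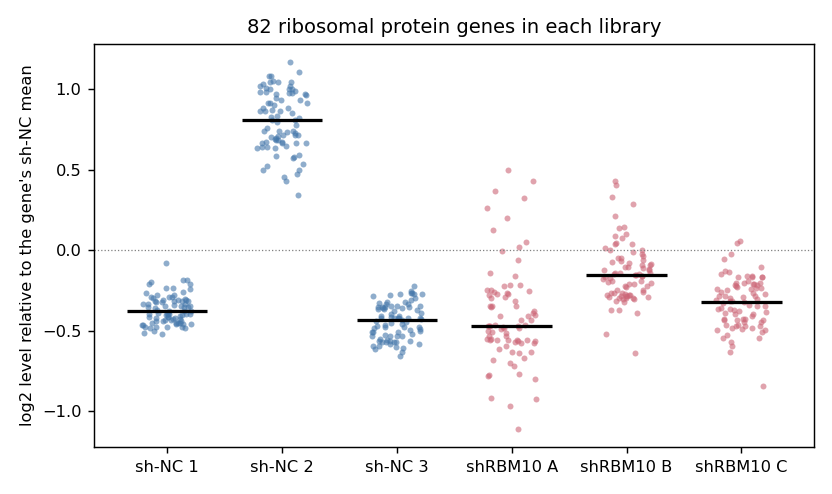
Log2 level (CPM scaled by TMM) of the 82 tested ribosomal protein genes in each library, relative to the gene's mean over the 3 sh-NC libraries. Points are genes and bars are medians, which were 0.81 in sh-NC replicate 2 and between -0.47 and -0.15 in the other 5 libraries.

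Of the 84 members, 82 passed edgeR's filter on low counts. The 2 that did not are RPL3L, a paralog of RPL3 known from striated muscle, with 1 to 3 counts per library, and RPL10L, a paralog of RPL10 known from testis, with 1 count in sh-NC replicate 2 and 0 in the others, where a count of 0 allows up to 3. No fold change is given for them. None of the 82 members was called by edgeR's quasi-likelihood test (0 at a log2 fold change beyond 1 in either direction with an adjusted p under 0.05), against 0.0158% of the 12620 genes tested. At an unadjusted p under 0.05, 0 members were higher and 1 was lower in shRBM10, where 15.7% of all genes tested were higher and 8.60% lower. DESeq2 called 0 members (against 4.55% of all genes), and at an unadjusted p under 0.05 it had 0 members higher (against 17.0%) and 2 lower (against 8.79%). With limma-voom 0 members were called (against 0.0158%), while 0 were higher (against 13.9%) and 1 was lower (against 8.08%) at an unadjusted p under 0.05. The median log2 fold change of the members was -0.43, with 4 higher and 78 lower, against 0.027 over all genes. CPM values of the groups did not overlap for 3 members that were lower (3.66%, against 16.2% of all genes tested) and for 0 that were higher (against 13.8%). When that comparison left out sh-NC replicate 2, 3 members were lower without overlap (against 23.4%) and 22 were higher (against 23.4%).

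The lower median rested on sh-NC replicate 2. Without that library the median was 0.025, with 54 members higher and 28 lower, against 0.016 over all genes. Then 3 members were higher at an unadjusted p under 0.05 (RPL11, RPL14 and RPS4X, against 11.6% of all genes) and 1 was lower (RPL39L, against 12.7%), and edgeR's lowest adjusted p among the members was 0.173. Without each of the other libraries in turn, the median stayed between -0.63 and -0.34. With the trends of each library on GC content and transcript length removed, the median was -0.19 with 28 members higher, and 15 members passed an unadjusted p under 0.05. Of these, 1 was higher (RPS28, against 12.5% of all genes) and 14 were lower (against 13.8%), and 0 passed after adjustment.

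**Figure D3:**
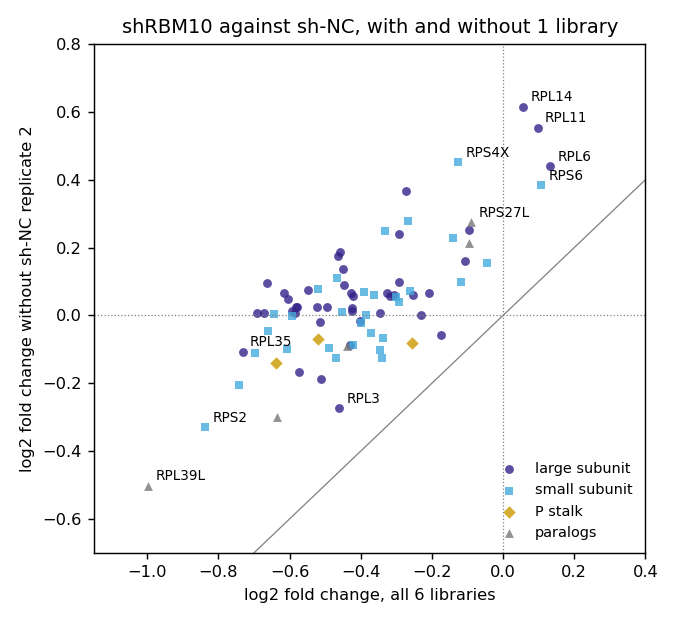
Log2 fold change of the 82 tested ribosomal protein genes between shRBM10 and sh-NC in edgeR's fit of all 6 libraries (x axis) and in the fit without sh-NC replicate 2 (y axis), with classes by symbol and equality as the solid line. All points lie above that line, and the median moved from -0.43 to 0.025.

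Among the large subunit genes, 3 of 43 were higher in the fit of all libraries, with a median log2 fold change of -0.43, and without sh-NC replicate 2 35 were higher with a median of 0.057. RPL35, a protein near the polypeptide exit tunnel, had the lowest value. It was at 984, 2738 and 915 CPM in sh-NC and at 717, 1101 and 974 CPM in shRBM10, a log2 fold change of -0.73 (SE 0.44, edgeR adjusted p = 0.302). Only sh-NC replicate 2 lay clear of the rest, and without it the value was -0.11. RPL6 had the highest value. It was at 789, 1515 and 773 CPM in sh-NC and at 1313, 1191 and 869 CPM in shRBM10, a log2 fold change of 0.13 (SE 0.34, edgeR adjusted p = 0.818) and of 0.44 without sh-NC replicate 2. All 3 shRBM10 libraries were above sh-NC replicates 1 and 3 and below replicate 2. RPL13A, the large subunit gene with the most counts and also the protein of the interferon-activated GAIT complex, was at 4763, 11775 and 4811 CPM in sh-NC and at 4570, 5865 and 5448 CPM in shRBM10. Its log2 fold change was -0.43 (edgeR adjusted p = 0.529) and 0.066 without sh-NC replicate 2.

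Among the small subunit genes, 1 of 31 was higher, with a median of -0.39, and without sh-NC replicate 2 17 were higher with a median of 0.005. RPS2, which lies at the mRNA entry side of the small subunit, had the most counts of all members. It was at 6813, 17318 and 7012 CPM in sh-NC and at 4813, 6551 and 6068 CPM in shRBM10. Every shRBM10 library was below every sh-NC library, with a log2 fold change of -0.84 (SE 0.45, edgeR adjusted p = 0.262) and -0.33 without sh-NC replicate 2 (edgeR adjusted p = 0.286). RPS6, the substrate of the S6 kinases downstream of mTOR, had the highest fold change of this class. It was at 781, 1461 and 799 CPM in sh-NC and at 1164, 1223 and 887 CPM in shRBM10, a log2 fold change of 0.11 (SE 0.33, edgeR adjusted p = 0.847) and of 0.38 without sh-NC replicate 2.

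Of the P stalk genes, RPLP0, the base of the stalk, was at 4793, 11980 and 4902 CPM in sh-NC and at 3762, 5324 and 4850 CPM in shRBM10, a log2 fold change of -0.64 (SE 0.44, edgeR adjusted p = 0.359). RPLP2, one of the acidic stalk proteins, was at 617, 949 and 590.2 CPM in sh-NC and at 472, 659.6 and 675 CPM in shRBM10, a log2 fold change of -0.26 (SE 0.29, edgeR adjusted p = 0.576). The groups overlapped for both, and without sh-NC replicate 2 the values were -0.14 and -0.082. RPL3, a large subunit protein close to the peptidyl transferase centre, was the remaining core member without overlap, at 3824, 6200 and 3876 CPM in sh-NC and 2813, 3711 and 3574 CPM in shRBM10 (log2 fold change -0.46, edgeR adjusted p = 0.391, and -0.27 with an edgeR adjusted p of 0.348 without sh-NC replicate 2).

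The member with the smallest p was RPL39L, the paralog of RPL39, a protein of the exit tunnel, known for its expression in testis and in some tumours. It was at 47.9, 117 and 46.9 CPM in sh-NC and at 29.5, 41.0 and 35.5 CPM in shRBM10. The shRBM10 libraries were all below the sh-NC libraries, with a log2 fold change of -1.0 (SE 0.37, unadjusted p = 0.0222, edgeR adjusted p = 0.172). Without sh-NC replicate 2 it was -0.50 (edgeR adjusted p = 0.187). Of the other tested paralogs, RPS27L, a p53 target, had the highest fold change, -0.090 (SE 0.32, edgeR adjusted p = 0.870), or 0.27 without sh-NC replicate 2, and was at 28.1, 53.5 and 22.9 CPM in sh-NC and 33.1, 34.7 and 30.3 CPM in shRBM10.

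Levels between genes can be compared only per length, for which the authors' TPM values were taken. In sh-NC, RPL39 was at 22266 ± 9803 TPM (SD, n = 3), RPS2 at 14851 ± 2333 TPM and RPL39L at 148 ± 23.8 TPM. The lowest of the tested members was RPS27L at 5.98 ± 0.574 TPM, and the lowest core member was RPL14 at 46.7 ± 8.21 TPM. TPM depends on the transcript length assigned to the gene, and annotated transcripts of RPL14 and RPS27L have a median length of 3994 and 6434 bases, against 401 bases for RPL39. The order of these levels therefore also reflects the annotation.

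Paralogs were then set against their partners within each library, which removes only a shift that both genes share. In each pair, sh-NC replicate 2 still had the lowest ratio of the sh-NC libraries. RPL39L had 2.66, 2.03 and 2.88 counts per 100 counts of RPL39 in the sh-NC libraries and 1.59, 1.95 and 1.91 in the shRBM10 libraries. The ranges were separate, with a difference in log2 ratio of -0.46 (two-sided exact permutation, p = 0.1, adjusted p = 0.3 over 6 pairs), or -0.61 without sh-NC replicate 2. RPL36AL, a paralog of RPL36A that lies outside the rule, had 10.9, 4.12 and 12.8 counts per 100 of RPL36A in sh-NC and 16.4, 16.6 and 13.2 in shRBM10. This pair did not overlap either (difference 0.88, exact permutation p = 0.1, adjusted p = 0.3), and without sh-NC replicate 2 the difference was 0.37. RPL22L1, whose level is known to be set by RPL22 through splicing, had 14.6, 9.78 and 14.3 counts per 100 of RPL22 in sh-NC and 6.75, 9.86 and 11.7 in shRBM10, which overlapped (difference -0.46, exact permutation p = 0.3, adjusted p = 0.6). The overlap came from sh-NC replicate 2 alone, and without it all 3 shRBM10 libraries were below both remaining controls, with a difference of -0.65. For RPL7L1 with RPL7, RPS27L with RPS27 and RPL26L1 with RPL26 the differences were 0.17, 0.16 and 0.001, or 0.12, 0.034 and -0.16 without sh-NC replicate 2, and the groups of all libraries overlapped in each. Counts of near-identical copies can be split in error between them, and how reads shared by several genes were treated is not given in the sources used here.

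Because all members moved together in sh-NC replicate 2, their make-up was examined by scaling each library to its summed ribosomal protein counts. On this scale 1 member was lower (RPS2, against 0.681% of all genes) and 3 were higher (RPL11, RPL6 and RPS6, against 7.25%) at an unadjusted p under 0.05, and 0 passed after adjustment over all genes in edgeR's fit, where the lowest adjusted p among the members was 0.574. The groups did not overlap for 11 members that were higher (13.4%, against 17.1% of all genes scaled in the same way) and for 6 that were lower (7.32%, against 2.60%). On this scale the members sum to the same total in every library, and other genes do not. The shares of all genes therefore shift with the member share of sh-NC replicate 2 and are not a like background. Leaving out sh-NC replicate 2, 20 were higher without overlap (against 17.3%) and 11 lower (against 26.9%), and an unadjusted p under 0.05 was passed by 6 higher (against 9.86%) and 3 lower members (against 10.3%). With all libraries, the 6 lower members without overlap included RPS2, RPL22L1, RPL39L, RPLP0 and RPS9. The 11 higher members of that same comparison were RPL11, RPS25, RPL31, RPS27L, RPL24, RPS12, RPL23A, RPS6, RPS18, RPL19 and RPL6.

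RPS2 took 6.48%, 7.10% and 6.92% of the ribosomal protein counts in the sh-NC libraries and 4.93%, 5.43% and 5.60% in the shRBM10 libraries. The log2 difference in share was -0.36 (SE 0.11, unadjusted p = 0.00902, edgeR adjusted p = 0.574) and ran from -0.40 to -0.31 when single libraries were left out. RPL39L followed with shares of 0.0456%, 0.0481% and 0.0462% in sh-NC and 0.0302%, 0.0340% and 0.0328% in shRBM10 (log2 difference -0.53, edgeR adjusted p = 0.574). For both, sh-NC replicate 2 lay with the other sh-NC libraries on this scale.

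RPL11 took 0.420%, 0.427% and 0.434% of the ribosomal protein counts in the sh-NC libraries and 0.755%, 0.657% and 0.486% in shRBM10, a log2 difference of 0.57 (SE 0.21, unadjusted p = 0.0265, edgeR adjusted p = 0.574). The value lay between 0.42 and 0.73 when single libraries were left out. RPL14 had a similar difference (0.57, SE 0.28, edgeR adjusted p = 0.574), but its share was 0.203%, 0.232% and 0.204% in sh-NC and 0.424%, 0.321% and 0.207% in shRBM10, so library C lay among the sh-NC libraries. RPL6 took 0.751%, 0.621% and 0.763% in sh-NC and 1.35%, 0.987% and 0.802% in shRBM10, a difference of 0.55 (edgeR adjusted p = 0.574). RPS6 took 0.743%, 0.599% and 0.788% in sh-NC and 1.19%, 1.01% and 0.819% in shRBM10, a difference of 0.51 (edgeR adjusted p = 0.574). All 4 genes were highest in shRBM10 libraries A and B and lower in library C. Across all genes, the levels of A and B fell with GC content (r = -0.689 and -0.643). The part of GC content in these shares was not tested. In the fit of CPM levels with GC trends removed, RPL14, RPL6 and RPS6, but not RPL11, turned lower in shRBM10. With GC and length trends removed, RPL14 and RPS6 turned lower, but RPL6 did not. The values of those that turned are given in the last section.

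**Figure D4:**
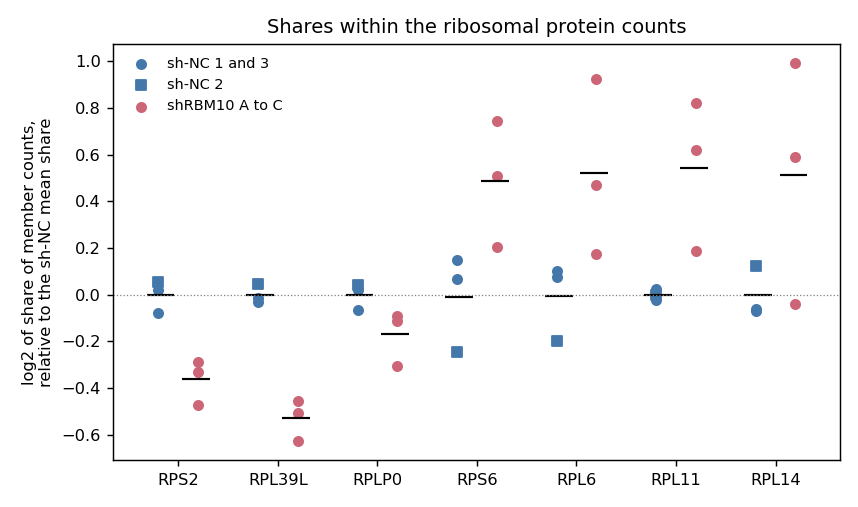
Share of the summed ribosomal protein counts taken by 7 members, as log2 relative to the sh-NC mean share. Points are libraries (blue sh-NC, with replicate 2 as a square, and red shRBM10) and bars are group means. RPS2 and RPL39L were lower in all 3 shRBM10 libraries, while RPL11, RPL6 and RPS6 were higher with a wide spread between libraries.

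The balance between the subunits was nearly fixed. The ratio of large to small subunit counts was 1.24, 1.25 and 1.23 in sh-NC and 1.31, 1.28 and 1.27 in shRBM10, with means of 1.24 ± 0.00803 and 1.29 ± 0.0197 (SD, n = 3 each). No shRBM10 library reached down to the sh-NC range (exact permutation, two-sided, p = 0.1), and without sh-NC replicate 2 the difference was 0.0472 against 0.0437 with it. This difference rested on RPS2, the most abundant member. Without RPS2 the ratio was 1.47, 1.51 and 1.48 in sh-NC and 1.49, 1.47 and 1.47 in shRBM10, a difference of -0.00897 (exact permutation p = 0.5).

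Members with known roles outside the ribosome or in disease were taken from fixed lists. Of the 18 genes mutated in Diamond-Blackfan anaemia, 1 was higher (RPL11) and 17 lower, with a median log2 fold change of -0.45 against -0.43 for all members. Without sh-NC replicate 2, 12 of the 18 were higher and the median was 0.051. RPL5, which forms the 5S particle with RPL11, was at 705, 1275 and 697 CPM in sh-NC and 888, 947 and 653 CPM in shRBM10 (log2 fold change -0.11, edgeR adjusted p = 0.846, and 0.16 without sh-NC replicate 2). RPL11 was at 441, 1041 and 440.1 CPM in sh-NC and 736, 793 and 526 CPM in shRBM10 (log2 fold change 0.097, edgeR adjusted p = 0.879). Without sh-NC replicate 2, RPL11 was at a log2 fold change of 0.55 (unadjusted p = 0.0256, edgeR adjusted p = 0.173), with all 3 shRBM10 libraries above the 2 remaining controls.

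Members with and without a TOP at an annotated start were close to each other. The median log2 fold change was -0.43 over 47 tested members with a TOP and -0.35 over 19 without, and without sh-NC replicate 2 these medians were 0.024 and 0.047. In sh-NC replicate 2 the median log2 level against the sh-NC mean was 0.83 with a TOP and 0.69 without.

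Transcript usage was compared within genes, since RBM10 regulates splicing. Of the members, 47 had more than 1 transcript that could be tested, with 180 transcripts. By edgeR's diffSpliceDGE, 0 of the 47 passed an adjusted p under 0.05 (against 0.0958% of 8348 genes) and 1 passed an unadjusted Simes p under 0.05 (RPS19, against 2.78%), while limma's diffSplice found 0 at either limit. Of the 180 member transcripts, 50 (27.8%) had shares that were fully apart between the groups, against 13.9% of 34374 transcripts in all genes. The 2 sets were not matched for depth, and in abundant genes very small shifts can separate the groups. NM_001003 of RPLP1 was counted at 99.5%, 99.5% and 99.4% in sh-NC and 99.7%, 99.7% and 99.6% in shRBM10. In a gene with 2 transcripts both shares separate together. Transcripts of 1 gene share their reads, and only 41.1% of the deposited transcript counts are whole numbers, so these shares are estimates.

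RPS24, a small subunit protein whose transcripts differ in short alternative exons near the 3′ end, lies on chromosome 10 from 78033863 to 78056806. The transcript NM_001026 took 69.4%, 71.9% and 70.1% of the gene's estimated counts in the sh-NC libraries and 58.8%, 56.2% and 59.2% in shRBM10. NM_033022 took 15.4%, 13.7% and 15.7% in sh-NC and 24.4%, 25.1% and 23.0% in shRBM10. NM_001142282 took 14.9%, 14.2% and 13.8% in sh-NC and 16.5%, 18.5% and 17.5% in shRBM10. For all 3 the groups did not overlap, and sh-NC replicate 2 lay with the other sh-NC libraries. The shift was -12.4 percentage points for NM_001026 and 9.24 points for NM_033022 (p = 0.1 for both in a two-sided exact permutation test). A 95% Wilson interval of these 2 shares was at most 1.21 points wide in any library. It covers counting error only, and not error in assigning reads to transcripts that share most of their sequence. Leaving out single libraries moved the shifts to between -13.0 and -11.5 points and between 8.61 and 9.83 points. edgeR's diffSpliceDGE did not call the gene (adjusted p = 1.0), with an unadjusted p of 0.0392 for NM_033022 alone, a Simes p of 0.235 and a Simes p between 0.143 and 0.643 when single libraries were left out. The total level of RPS24 was at 1381, 3723 and 1278 CPM in sh-NC and 1508, 1625 and 1321 CPM in shRBM10 (log2 fold change -0.52, edgeR adjusted p = 0.435, and 0.077 without sh-NC replicate 2).

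**Figure D5:**
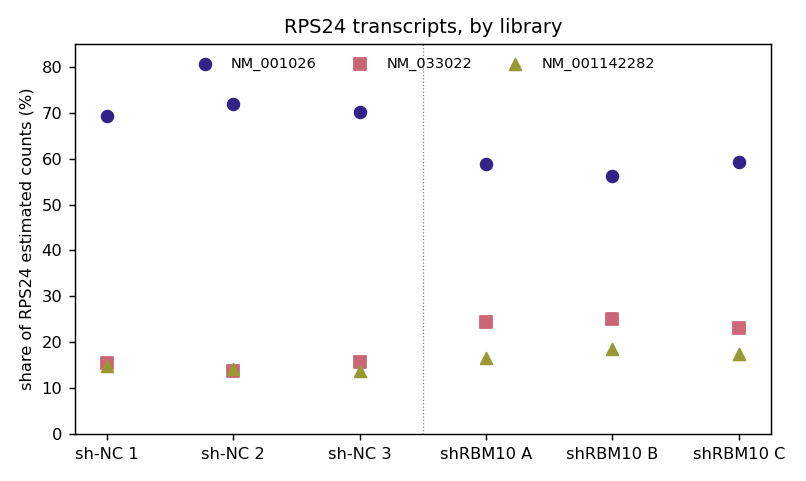
Share (%) of the estimated RPS24 counts assigned to 3 RefSeq transcripts in each library. NM_001026 lay between 69.4% and 71.9% in sh-NC and between 56.2% and 59.2% in shRBM10, and NM_033022 between 13.7% and 15.7% and between 23.0% and 25.1%.

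The other genes with the smallest Simes p showed smaller shifts in minor transcripts. In RPS19, the gene most often mutated in Diamond-Blackfan anaemia, NM_001321483 took 3.23%, 1.81% and 2.44% in sh-NC and 0.919%, 0.987% and 1.19% in shRBM10 (edgeR's diffSpliceDGE model, unadjusted p = 0.00724). The main transcripts of RPS19 stood apart in sh-NC replicate 2. XM_017027113 took 65.5%, 50.6% and 63.6% in sh-NC and 61.2%, 67.4% and 66.9% in shRBM10. NM_001022 took 22.6%, 41.0% and 25.3% in sh-NC and 33.6%, 26.7% and 26.6% in shRBM10. In RPS14, a gene of the chromosome region lost in the 5q- syndrome, the main transcript NM_005617 took 98.3%, 97.8% and 98.1% in sh-NC and 99.1%, 98.9% and 99.0% in shRBM10. In RPL27, the main transcript NM_000988 took 94.2%, 95.0% and 93.1% in sh-NC and 96.8%, 96.4% and 95.9% in shRBM10. RPL8 was alike, with NM_000973 at 93.6%, 92.4% and 93.2% in sh-NC and 94.9%, 95.2% and 94.3% in shRBM10. In RPS14, RPL27 and RPL8 the main transcript took a slightly larger share in every shRBM10 library than in any sh-NC library.

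Genes that make, assemble or control the ribosome were compared by lists, and in edgeR's fit of all libraries 0 of their genes passed an adjusted p under 0.05. DESeq2 had 8 of 100 assembly factors and 1 of 16 regulators of TOP mRNAs under that limit, against 647 of 12620 genes tested. With GC and length trends removed, edgeR had 4 assembly factors and 1 of 78 mitochondrial ribosome genes, against 360 of the 12620. The 78 genes of the mitochondrial ribosome, which is separate from the cytosolic one, were also highest in sh-NC replicate 2 in 73 cases. Their share of counts was 0.590%, 0.762% and 0.577% in sh-NC and 0.489%, 0.543% and 0.510% in shRBM10, without overlap (exact permutation, two-sided, p = 0.1). In CPM, 30 of the 78 were lower without overlap (38.5%, against 16.2% of all genes) and 1 was higher (1.28%, against 13.8%), where 3 and 0 of the 82 members were. Without sh-NC replicate 2 their median was -0.17 with 58 lower, where that of the members was 0.025 with 28 lower, a difference between the 2 sets that was not tested. At an unadjusted p under 0.05 in edgeR's fit of all libraries, 19 were lower (against 8.60% of all genes) and 0 higher (against 15.7%), and without sh-NC replicate 2 these were 9 and 0 (against 12.7% and 11.6%). MRPL12, also a partner of the mitochondrial RNA polymerase, was lowest at a log2 fold change of -1.0 (SE 0.32, edgeR adjusted p = 0.156), and at -0.64 without sh-NC replicate 2.

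FAU, which encodes a small subunit protein fused to a ubiquitin-like protein, and RACK1, a scaffold on the small subunit, were also highest in sh-NC replicate 2, with log2 fold changes of -0.58 and -0.29, or -0.16 and -0.11 without that library. A list of 18 genes known for TOP mRNAs joined translation factors with TPT1, NAP1L1, HNRNPA1, NPM1, VIM, IPO5 and IPO7, which are not translation factors. Of 12 with a promoter entry, 9 had a TOP at an annotated start. The 18 genes took 3.12%, 4.41% and 3.14% of counts in the sh-NC libraries and 4.16%, 4.02% and 3.38% in shRBM10. Of these, 10 were higher (1 at an unadjusted p under 0.05, and 0 of the 8 lower ones), with a median log2 fold change of 0.079, from -0.66 for EEF1B2, an exchange factor of elongation, to 1.27 for IPO7, an importer of ribosomal proteins into the nucleus, and these were -0.033 and 0.82 without sh-NC replicate 2. Of 100 tested ribosome assembly factors 46 were higher and 54 lower (median -0.10), and at an unadjusted p under 0.05 16 were higher (against 15.7% of all genes) and 22 lower (against 8.60%), or 5 and 23 without sh-NC replicate 2 (against 11.6% and 12.7%). The same shares of all genes apply to the counts at that limit in the other lists. The lowest was BOP1, a factor of large subunit assembly, at 124, 196 and 123 CPM in sh-NC and 54.3, 59.4 and 76.3 CPM in shRBM10 (log2 fold change -1.22, edgeR adjusted p = 0.128), and the highest was EFL1, a GTPase of late large subunit maturation, at 7.31, 3.35 and 7.56 CPM and 29.6, 20.9 and 7.84 CPM (1.67, edgeR adjusted p = 0.153). EFL1 in library C was close to sh-NC replicates 1 and 3. In the fit without sh-NC replicate 2 the values of BOP1 and EFL1 were -1.04 and 1.29.

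Of 14 genes of RNA polymerase I and its factors, 6 were higher and 8 lower (median -0.22; at an unadjusted p under 0.05, 1 and 3), from POLR1C at -0.78 to POLR1F at 0.93, or -0.36 and 0.45 without sh-NC replicate 2. Of 10 chaperones of ribosomal proteins, 3 were higher and 7 lower (median -0.24, with 2 and 2 at that limit), from PDCD2L at -0.83 to LTV1 at 1.14, or -0.61 and 0.80 without it. Of 16 regulators of TOP mRNAs and of ribosome synthesis, 6 were higher and 10 lower (median -0.22, with 0 and 4 at that limit). MYC, a transcription factor that drives ribosome synthesis, was the lowest of them at 219, 179 and 231 CPM in sh-NC and 119, 86.0 and 136 CPM in the shRBM10 libraries. The groups did not overlap, with a log2 fold change of -0.88 (SE 0.25, unadjusted p = 0.00528, edgeR adjusted p = 0.153) and of -1.07 without sh-NC replicate 2 (edgeR adjusted p = 0.0979). RPS6KB1, the kinase of RPS6, was the highest at 0.87 (SE 0.48, edgeR adjusted p = 0.275), or 0.44 without sh-NC replicate 2. LARP1 was at 399, 149 and 412 CPM in sh-NC and 301, 274 and 366 CPM in shRBM10 (log2 fold change -0.028, edgeR adjusted p = 0.965), and was lowest in sh-NC replicate 2, the library in which every tested member was highest. Without that library it was at -0.45 (edgeR adjusted p = 0.180), with all 3 shRBM10 libraries below both remaining controls. LARP4, LARP4B, MTOR, TSC1 and RPS6KB1 were also lowest in sh-NC replicate 2, while 6 of the 16 regulators were highest in it. A link between LARP1 and the levels of the members was not tested. The small nucleolar RNA host genes were not analysed here.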

How the data were processed

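The authors deposited 1 table of genes (16306) and 1 of RefSeq transcripts (76563), both with estimated counts, normalized counts, TPM and FPKM, with hg38 named as the build in the submitters' processing notes. The aligner and counting tool are not given in the sources used here. The deposited estimated counts are whole numbers for 87.5% of values in the gene table and 41.1% in the transcript table. The authors' TPM was used only to compare levels between genes. In all, 15 columns of other per-sample values in the gene table and 18 in the transcript table were not used, nor were the other group means.

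Counts were rounded, filtered with filterByExpr, scaled by TMM and tested with edgeR 4.0.16 (glmQLFit and glmQLFTest, R 4.3.3) over all 6 libraries without a covariate. A call needed a log2 fold change beyond 1 in either direction and a Benjamini-Hochberg adjusted p under 0.05. SE is the fold change divided by the square root of F. For the make-up, library sizes were the summed member counts. Transcript usage was tested with diffSpliceDGE. Pairs and shares were tested by two-sided exact permutation (scipy 1.17.1), with a pseudocount of 0.5 in log2 ratios. Alternatives were DESeq2 1.42.0, limma-voom (limma 3.58.1), other normalizations and filters, GC and length offsets (lowess, span 0.3) and leaving out each library. Scripts were tested on simulated data. Gene coordinates and start sites are from RefSeq on GRCh38.p14, matched by Entrez gene ID.

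The members, lists and tests were chosen with earlier results of these data known. Genes named are RBM10, the 3 members with the most counts, the members with the smallest p and the highest and lowest fold change of each class, the paralog pairs, the 3 highest and lowest in the make-up, the 5 with the smallest Simes p and RPS24, and the extremes of each list. RPL3, RPS4X, RPS28, FAU, LARP1 and the members without overlap were named after their values were seen. Results on 2 further genes are not reported here.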

Additional observations from a re-analysis of the deposited data

How the results depend on the processing

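0 members passed an adjusted p under 0.05 in the fit of all libraries and in each of 15 alternatives. The median log2 fold change of the members was -0.45 with GC trends removed, -0.44 with DESeq2 or RLE factors, -0.42 with no filter, -0.40 with at least 10 counts in every library, -0.35 with upper-quartile factors, -0.32 with limma-voom, -0.19 with GC and length trends removed and -0.20 with library size only, a scaling that moved the median of all genes by 0.13, so that the members lay 0.35 below it. It ran from -0.63 to 0.025 when single libraries were left out. Members at an unadjusted p under 0.05 numbered 1, against 15 with GC and length trends removed, 3 with GC trends removed, 2 with DESeq2 and 0 to 4 when single libraries were left out (4 without sh-NC replicate 2, 0 without shRBM10 library A or C). In the make-up this count was 4 and ran from 1 to 9 (9 without sh-NC replicate 2). Over all genes, 2 were called, against 574 with DESeq2, 155 with GC and length trends removed, 31 with no filter, 4 with GC trends removed, 0 with library size only, and 0 to 23 when single libraries were left out. At an unadjusted p under 0.05 they numbered 1987 higher and 1085 lower. Transcript usage called 8 genes, 0 with at least 10 counts in every library or with limma, and 5 to 14 when single libraries were left out, with 0 members in each. The difference in share of counts ran from -3.24 to 0.291 points when single libraries were left out. The cause of these changes was not tested.

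Some directions turned when single libraries were left out. The log2 ratio difference then ran from -0.040 to 0.28 for RPL7L1 with RPL7 and from -0.16 to 0.10 for RPL26L1 with RPL26. The log2 fold change ran from -0.64 to 0.023 for RPL10, -0.12 to 0.55 for RPL11, -0.65 to 0.066 for RPL13A, -0.19 to 0.62 for RPL14, -0.55 to 0.37 for RPL22, -0.82 to 0.075 for RPL26, -0.77 to 0.026 for RPL27, -0.86 to 0.026 for RPL36A, -0.97 to 0.096 for RPL39, -0.26 to 0.16 for RPL5, -0.038 to 0.44 for RPL6, -0.54 to 0.066 for RPL7, -0.34 to 0.21 for RPL7L1, -0.60 to 0.001 for RPS14, -0.78 to 0.077 for RPS24, -0.60 to 0.25 for RPS27, -0.32 to 0.27 for RPS27L and -0.053 to 0.38 for RPS6. With GC and length trends removed it was 0.039 for RPL13A, -0.40 for RPL14, 0.034 for RPL8, 0.25 for RPLP2, 0.13 for RPS14, 0.17 for RPS19, 0.12 for RPS27 and -0.27 for RPS6. With GC trends removed it was -0.21 for RPL14, -0.14 for RPL6, 0.043 for RPLP2 and -0.50 for RPS6. With library size only it was 0.094 for RPL5, 0.12 for RPL7L1 and 0.13 for RPS27L, and with limma-voom 0.029 for RPS27L.

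No paired analysis was possible because the columns of 2 of the 3 shRBM10 libraries carry no replicate number. The ratio of subunits without RPS2, the RPS24 shares without single libraries and the counts of members without overlap when sh-NC replicate 2 was left out were added after seeing the data. Counts of the tested members ran from 467 to 232380 per library.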
